A study of Aspergillus nidulans with 4 samples.

Results

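The conidiation marker genes brlA, ivoB, catA and vosA were followed on both strands in 4 RNA-seq libraries of the filamentous fungus Aspergillus nidulans. All 4 genes were found by their symbol in the name column of the deposited tables, among 8419 gene identifiers with a count on either strand. The fungus was the strain biA1, a biotin-requiring strain used as wild type, and all 4 media share this genotype. The first library came from mycelium on 0.1% fructose with urea and the second from 0.1% fructose with 10 mM ammonium tartrate. The third came from 1% glucose with urea and the fourth from 1% glucose with 10 mM ammonium tartrate. Urea is given as 10 mM in one label and 5 mM in another. The labels describe growth at 37 °C lasting 9 to 12 h in minimal medium, glucose and ammonium as the repressing sources, and do not say whether the medium was liquid or solid. RNA of 3 cultures was pooled into each library, so every medium has 1 library, the spread between cultures of a medium is not measured, and no difference below has a replicate check or a test. Tartrate accompanied only ammonium, and sugar kind and sugar amount changed together.

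Conidiation is the asexual sporulation of the fungus, in which a stalk carrying layers of specialised cells buds off chains of pigmented spores. The zinc finger protein BrlA is the switch that starts it, the proteins of the fluffy genes act upstream of brlA, and AbaA and WetA follow in the later layers and the spore. VosA is a velvet-domain protein of maturing spores that feeds back to repress brlA and is needed for spore trehalose and viability. IvoB is a phenol oxidase that makes the dark pigment of the conidiophore, and CatA is the catalase of conidia. Vegetative hyphae normally keep these genes low, and transfer of mycelium to medium without a carbon or nitrogen source is known to induce brlA. The catA mRNA is known to be under translational control, so its amount does not give the amount of enzyme.

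Sense counts summed over the listed genes were 812637 in fructose with urea, 547041 in fructose with ammonium, 1698692 in glucose with urea and 2606076 in glucose with ammonium. Antisense sums lay between 210543 and 1058595. Levels below are in CPM, a count divided by the sum of the same strand of its library and scaled up. At this depth a sense count of 0 allows up to 3 counts, which is 3.69, 5.48, 1.77 and 1.15 CPM in the same 4 libraries. In these bulk samples, fewer cells of a type and less RNA per cell cannot be told apart.

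The markers were higher in fructose with urea than in the other libraries analysed. The sense counts analysed outside that medium were at most 68 for vosA and at most 11 for brlA, ivoB and catA, with brlA not analysed in glucose with ammonium. The sense transcript of the pigment enzyme gene ivoB stood apart, with 517 counts in fructose with urea. Of the 3 members with a sense count from every library, all 3 had their highest CPM in fructose with urea, as did 40.1% of 6789 genes with 4 counts. With scaling by the trimmed mean of M values (TMM) over those genes, the background was 35.2%.

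**Figure D1:**
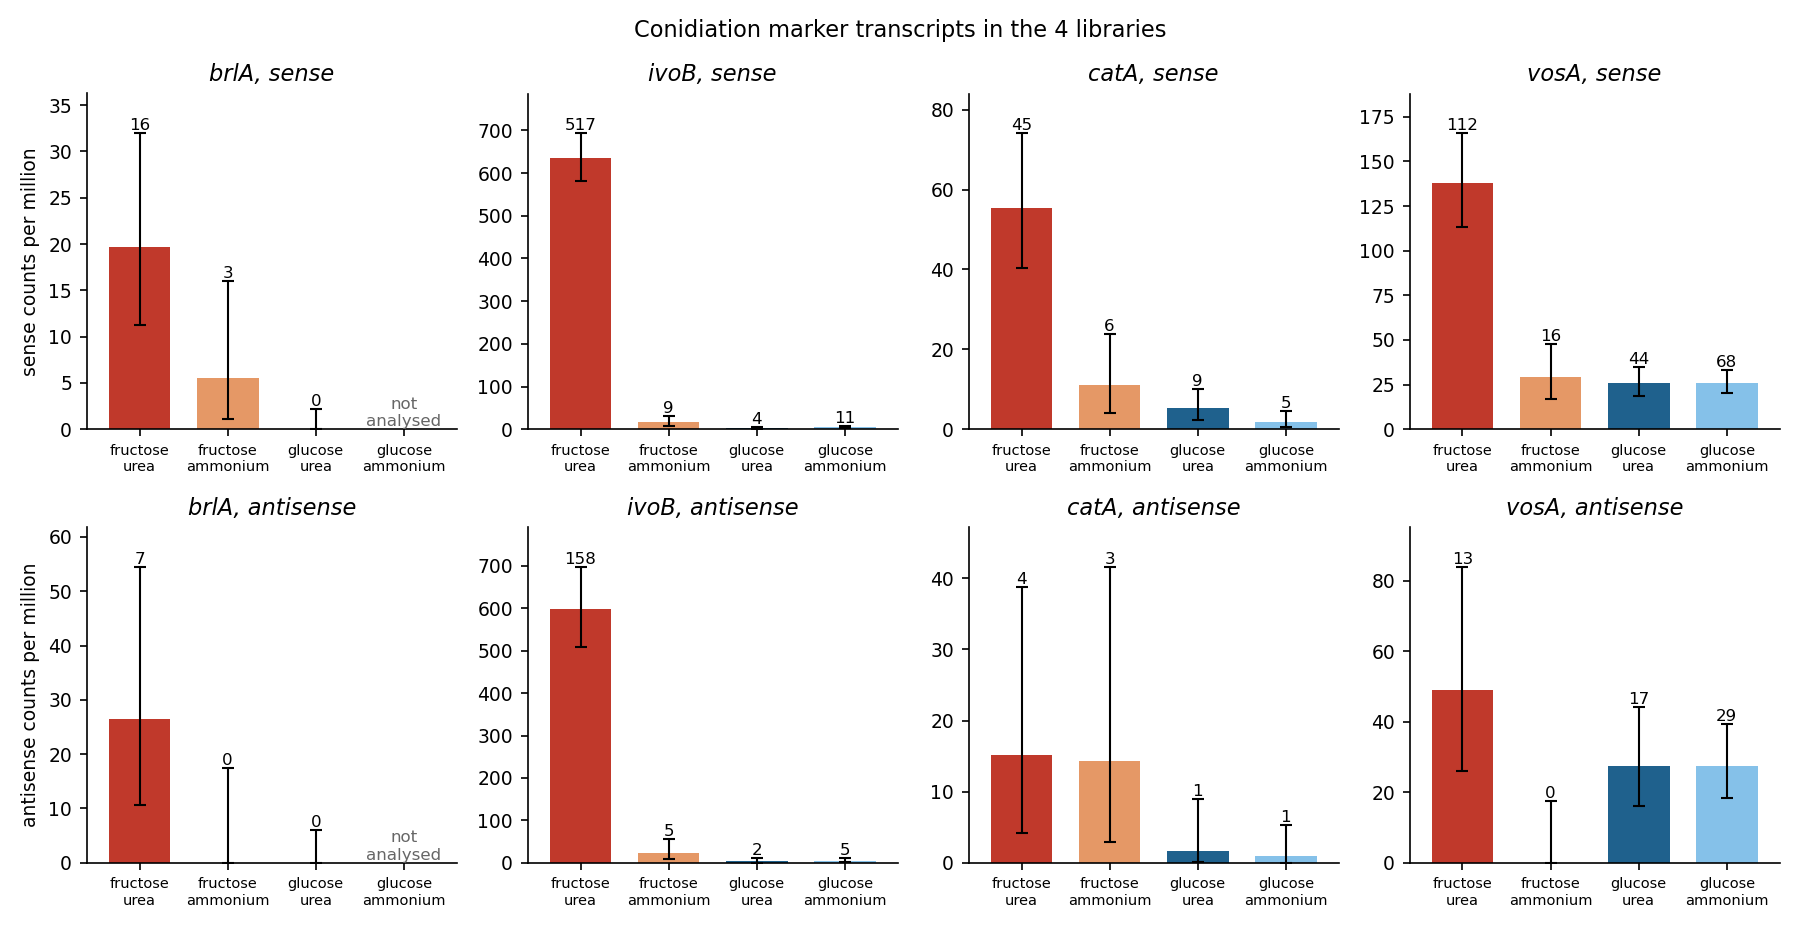
Sense (top) and antisense (bottom) levels in CPM of brlA, ivoB, catA and vosA in the 4 libraries, on axes that start at 0 and differ between panels. Bars are single libraries, whiskers are exact 95% Poisson intervals, and the number above each bar is the raw count. ivoB sense reaches 636 CPM in fructose with urea, against 2.35 to 16.5 CPM in the other libraries.

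brlA (AN0973), the gene of the central activator, had 16 sense counts in fructose with urea, 3 in fructose with ammonium and 0 in glucose with urea. These counts are 19.7 CPM (exact 95% Poisson interval 11.3 to 32.0), 5.48 CPM (1.13 to 16.0) and 0 CPM (0 to 2.17). The interval in fructose with urea overlapped that in fructose with ammonium and lay above that in glucose with urea. A brlA count in glucose with ammonium was not analysed here. In both sense tables that hold that library, the higher library of every listed gene had at least 10.4 CPM. The deposited description of brlA names a pair of overlapping transcription units, alpha and beta, which a count per gene does not separate.

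ivoB (AN0231), the phenol oxidase gene of conidiophore pigment, had 517 sense counts in fructose with urea, 9 in fructose with ammonium, 4 in glucose with urea and 11 in glucose with ammonium. Scaled to depth these were 636 CPM (583 to 693), 16.5 CPM (7.52 to 31.2), 2.35 CPM (0.64 to 6.03) and 4.22 CPM (2.11 to 7.55). The interval of fructose with urea lay far above the other 3. The interval of fructose with ammonium touched that of glucose with ammonium over a narrow range and lay above that of glucose with urea, and the glucose libraries overlapped each other.

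catA (AN8637), the gene of the spore catalase, had 45 sense counts in fructose with urea, 6 in fructose with ammonium, 9 in glucose with urea and 5 in glucose with ammonium. At their depths these were 55.4 CPM (40.4 to 74.1), 11.0 CPM (4.03 to 23.9), 5.30 CPM (2.42 to 10.1) and 1.92 CPM (0.62 to 4.48). Only the library of fructose with urea stood clear of all others. Its neighbours in the order of levels overlapped pair by pair.

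vosA (AN1959), the velvet regulator gene, was the member with the most counts outside fructose with urea. It had 112 sense counts in fructose with urea, 16 in fructose with ammonium, 44 in glucose with urea and 68 in glucose with ammonium. These were 138 CPM (113 to 166), 29.2 CPM (16.7 to 47.5), 25.9 CPM (18.8 to 34.8) and 26.1 CPM (20.3 to 33.1). The last 3 values did not differ beyond counting error, and the first lay above all of them.

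Urea against ammonium in fructose was the first of the nitrogen comparisons. Ratios were taken from counts scaled by TMM over the 2 libraries of each deposited table, and the ranges after log2 ratios are exact 95% Clopper-Pearson intervals, which cover counting error only. ivoB was 33.7-fold higher in urea, a log2 ratio of 5.07 (4.14 to 6.21). catA was 4.40-fold higher, with 2.14 (0.90 to 3.66), and vosA 4.11-fold higher, with 2.04 (1.28 to 2.89). brlA was 3.13-fold higher, with 1.65 (-0.16 to 4.07), an interval that includes 0. Past a 4-fold threshold, 3 of 4 markers stood higher in urea, where 10.6% of 7467 listed genes did, and 0 stood lower, where 12.5% did. With a prior count of 1 added to each library the number was 2, because vosA then stood at 1.99. Each gene listed for this comparison had at least 11.0 CPM in its higher library. brlA, at 5.48 CPM in ammonium, was listed only through urea. In the authors' deposited table, whose p-values assume a biological coefficient of variation of 0.3, the false discovery rate was 7.34e-08 for ivoB, 0.038 for vosA, 0.0595 for catA and 0.302 for brlA.

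In glucose, none of ivoB, catA and vosA differed between the nitrogen sources beyond counting error, and brlA was not analysed with ammonium. vosA was close to equal, with 44 counts in urea, 68 in ammonium and a log2 ratio of 0.04 (-0.54 to 0.61). ivoB had 4 counts in urea and 11 in ammonium, a log2 ratio of -0.79 (-2.90 to 0.96). catA had 9 counts in urea and 5 in ammonium, a log2 ratio of 1.52 (-0.21 to 3.44). All 3 intervals include 0, and those of ivoB and catA are wide enough to hold a 4-fold difference. Of the 3 members 0 were at least 4-fold higher, against 1.97% of 6447 listed genes, and 0 lower, against 0.884%. The counts of ivoB and catA come from other tables, since these genes are not among the genes of the table for this comparison used here.

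Between the urea media, all 4 members were higher in fructose than in glucose. ivoB was 224-fold higher in fructose, a log2 ratio of 7.81 (6.44 to 9.69). brlA, at 0 counts in glucose, was at least 9.26-fold higher when 3 counts are put in for that 0. This bound takes the 16 counts in fructose as exact, and with their counting error the lower limit of the log2 ratio was 2.74. catA was 8.68-fold higher, with 3.12 (2.07 to 4.34), and vosA 4.42-fold higher, with 2.14 (1.63 to 2.68). Thus 4 of 4 members passed 4-fold towards fructose, against 17.2% of 7398 listed genes, and 0 towards glucose, against 15.4%. Each gene listed for these media had at least 10.6 CPM in its higher library. In glucose, brlA, ivoB and catA were under that level, at 0, 2.35 and 5.30 CPM. They were listed only through the library where they are high, and the shares serve as description only. This comparison shares the library of fructose with urea with the nitrogen comparison in fructose, so they are not independent. The authors' deposited table gave a false discovery rate of 1.73e-14 for ivoB, 0.001 for catA, 0.00121 for brlA and 0.00892 for vosA.

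Between the ammonium media, the carbon ratios of ivoB, catA and vosA were each smaller than between the urea media, a difference that was not tested. catA had 6 counts in fructose and 5 in glucose, which at the different depths is 5.55-fold higher, a log2 ratio of 2.47 (0.50 to 4.52). ivoB had 9 and 11 counts, 3.78-fold higher in fructose, with 1.92 (0.47 to 3.33). vosA had 16 and 68 counts and a log2 ratio of 0.12 (-0.76 to 0.92), an interval that includes 0. Here 1 of 3 members passed 4-fold towards fructose, against 11.9% of 7011 listed genes, and 0 towards glucose, against 6.42%. The listed genes had at least 10.4 CPM in the higher library. ivoB and catA, at 4.22 and 1.92 CPM in glucose, were listed only through fructose. The false discovery rate in the authors' deposited table was 0.179 for ivoB, 0.217 for catA and 0.972 for vosA.

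**Figure D2:**
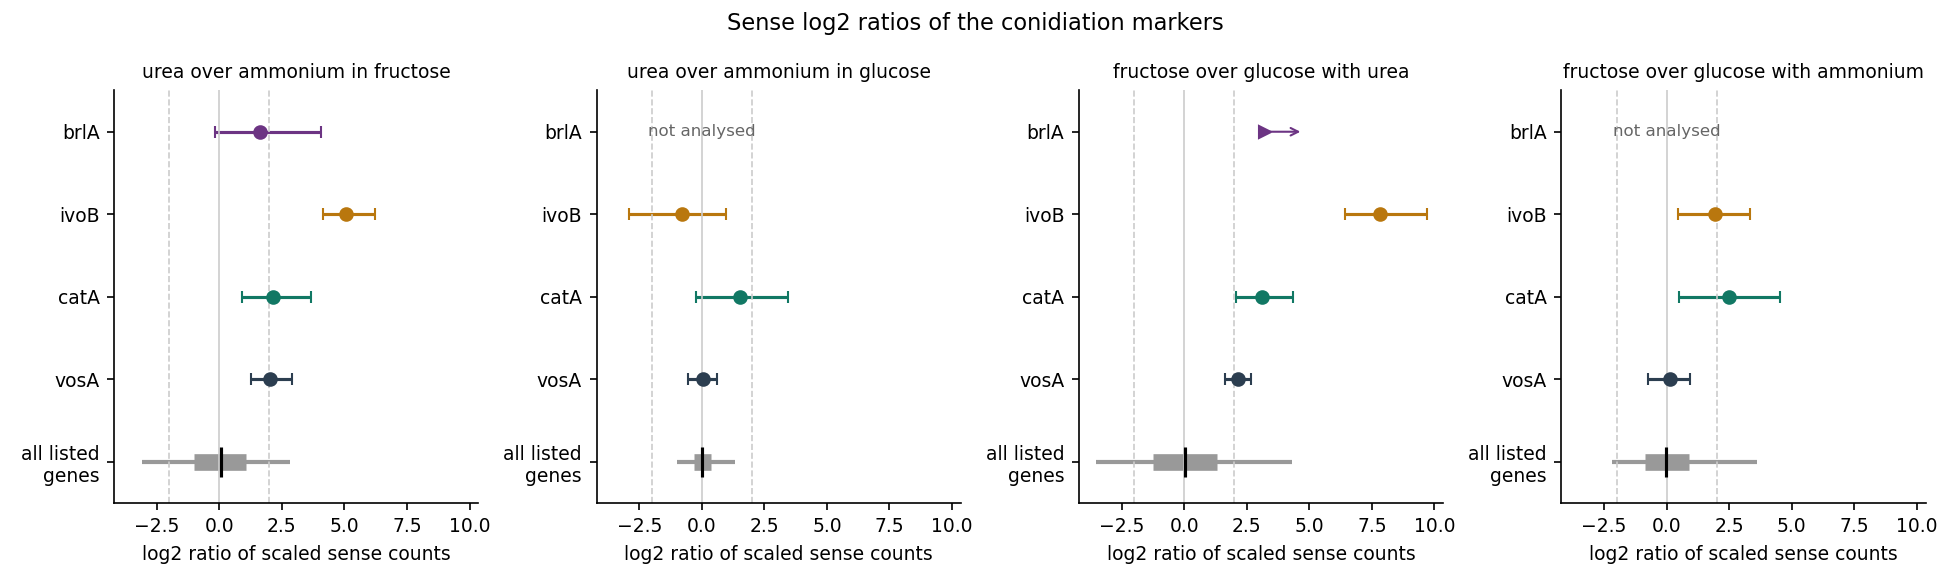
Log2 ratios of scaled sense counts of the 4 markers in the 4 comparisons (whiskers: exact 95% Clopper-Pearson intervals, an arrow: a lower bound against 3 counts), above the spread of all listed genes (thick line: middle 50%, thin line: 5th to 95th percentile, tick: median). Dashed lines mark 4-fold, and brlA was not analysed in the comparisons with glucose and ammonium. ivoB lies at 5.07 and 7.81 in the 2 comparisons that hold fructose with urea, beyond the 95th percentiles of 2.82 and 4.30.

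Antisense reads, those on the strand opposite to the gene, were counted for all 4 members. ivoB had 158 antisense counts in fructose with urea, 5 in fructose with ammonium, 2 in glucose with urea and 5 in glucose with ammonium. Its antisense reads were thus high in the same library as its sense reads. The antisense log2 ratio of ivoB was 4.52 (3.27 to 6.16) for urea over ammonium in fructose and 7.28 (5.41 to 10.34) for fructose over glucose with urea. In fructose with urea they made up 23.4% (Clopper-Pearson 20.3% to 26.8%) of both strands, a range that contains the 24.6% of all listed counts of that library. Over the genes with at least 20 counts in that library the median share was 20.7%.

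brlA had 7 antisense counts in fructose with urea, 0 in fructose with ammonium and 0 in glucose with urea, and a count in glucose with ammonium was not analysed here. In fructose with urea this was 30.4% (13.2% to 52.9%) of its 23 counts. Against 3 counts, brlA antisense was at least 1.69-fold higher in urea than ammonium in fructose and at least 4.60-fold higher in fructose than glucose with urea. With the counting error of the 7 counts, the lower limits of these log2 ratios were 0.065 and 1.51. catA had 4, 3, 1 and 1 antisense counts in fructose with urea, fructose with ammonium, glucose with urea and glucose with ammonium. At the different depths, 3 counts against 1 gave a log2 ratio of 3.98 (0.34 to 9.69) for fructose over glucose with ammonium. The catA antisense intervals of the other comparisons include 0, and all of these values rest on very few counts.

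The antisense counts of vosA were 13 in fructose with urea, 0 in fructose with ammonium, 17 in glucose with urea and 29 in glucose with ammonium. With urea, the antisense log2 ratio of fructose over glucose was 0.59 (-0.57 to 1.72), beside 2.14 (1.63 to 2.68) for the sense strand, and these intervals overlap. In fructose, vosA antisense was at least 3.14-fold higher in urea than in ammonium, the same direction as its sense ratio of 2.04. With ammonium it was at least 1.84-fold lower in fructose than in glucose, at 0 counts against 29, where the sense ratio was 0.12. These bounds take the 13 and 29 counts as exact. With their counting error, the lower limit of the first log2 ratio was 1.15 and the upper limit of the second was -0.49. The antisense share was 10.4% (5.65% to 17.1%) in fructose with urea, against 27.9% (17.1% to 40.8%) in glucose with urea and 29.9% (21.0% to 40.0%) in glucose with ammonium. In fructose with ammonium it was 0 of 16 counts, which allows a share of up to 18.8% by 3 counts and 20.6% by the Clopper-Pearson limit. The deposited description of vosA also names a pair of overlapping transcripts.

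Among antisense genes, 1 of 4 members was at least 4-fold higher in urea than ammonium in fructose, against 10.5% of 7474 listed genes, and 0 of 3 in glucose, against 4.13% of 6706. Of those 3, vosA alone is listed for nitrogen in glucose, and the counts of ivoB and catA come from other tables. For fructose over glucose, 3 of 4 passed with urea, against 15.6% of 7519, and 2 of 3 with ammonium, against 12.8% of 7047. With ammonium these were ivoB, at 5 counts against 5 and 2.39 (0.27 to 4.51), and catA, at 3 against 1 and 3.98 (0.34 to 9.69). These 2 rest on very few counts and were listed only through fructose, as were brlA, ivoB and catA with urea. In the lower direction, with 3 counts put in for a 0, the members past 4-fold were 0 in each of the 4 comparisons, against 13.3% and 2.68% for nitrogen in fructose and in glucose, and 15.2% and 7.68% for carbon with urea and with ammonium. Since ratios against a 0 are bounds, these counts depend on the value put in. With a prior count of 1, brlA and vosA also passed for urea over ammonium in fructose, at 2.82 and 3.61, which makes 3 of 4. vosA then stood at -4.19 for fructose over glucose with ammonium, which makes 1 of 3 lower. ivoB passed in both comparisons that hold fructose with urea, and so did brlA with a prior count of 1. catA passed with urea at 4 counts against 1, with an interval that includes 0.

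**Figure D3:**
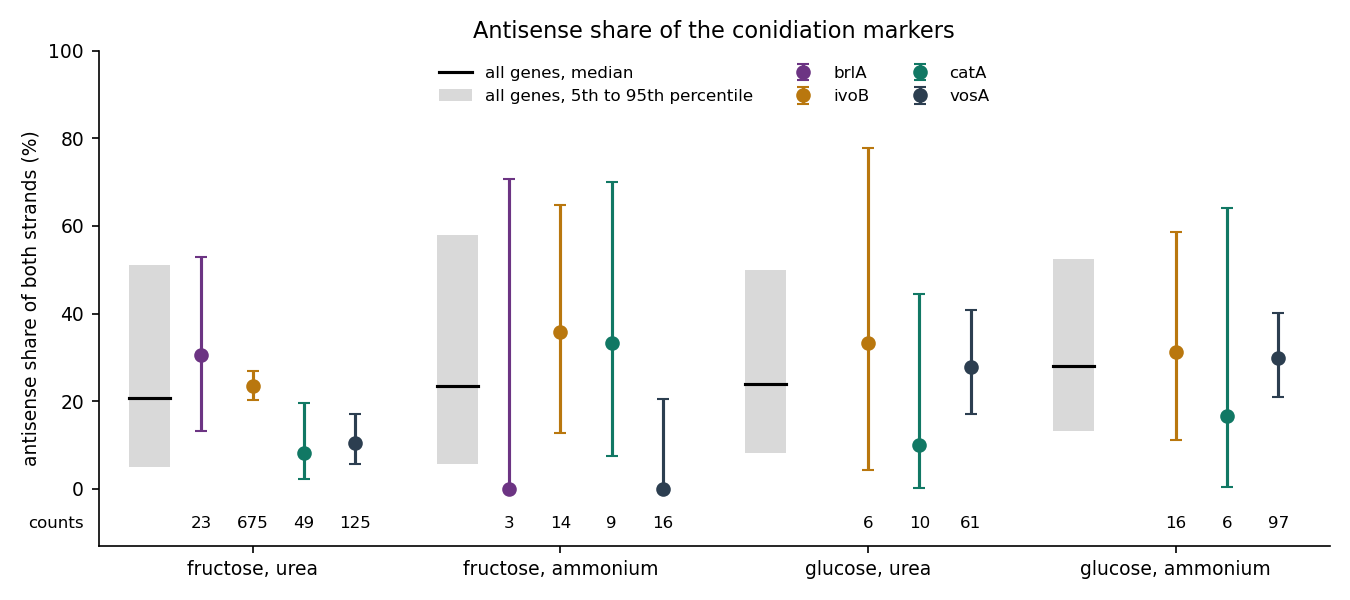
Antisense share of the reads on both strands for each marker and library, with exact 95% Clopper-Pearson intervals and, below, the counts of both strands together. Grey bars span the 5th to 95th percentile and black lines the median of genes with at least 20 counts in that library. vosA lies at 10.4% in fructose with urea, against 27.9% and 29.9% in the glucose libraries, while brlA and catA rest on few counts.

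The rest of the sporulation pathway was read from 7 lists of 43 genes, chosen with earlier results of these data known, of which 33 had a sense count. In the central pathway, abaA and wetA, the regulators after brlA, had no sense or antisense counts analysed here. In the list of spore wall and pigment genes, ivoA, for an enzyme that acts before IvoB, had none either. Neither did yA, the laccase gene of green spore pigment, nor rodA, the hydrophobin gene of the spore coat. The polyketide synthase gene wA of spore pigment had 4 sense counts in fructose with urea, 7 in fructose with ammonium and 4 in glucose with ammonium. These are 4.92, 12.8 and 1.53 CPM, with overlapping intervals between the fructose libraries. Of the 2 genes of this list, 1, ivoB, passed 4-fold towards urea in fructose, beside 10.6% of all listed genes. For fructose over glucose with ammonium 1 of 2, wA, passed towards fructose, beside 11.9%. There wA was listed only through fructose, since 1.53 CPM is under the 10.4 CPM of the listed genes. In the lower directions 0 passed, beside 12.5% and 6.42%. A count of wA in glucose with urea was not analysed here.

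All 12 upstream regulators had a sense count in every medium. Of 11 listed for urea over ammonium in fructose, 1 passed 4-fold towards urea, beside 10.6% of all listed genes, and 0 towards ammonium, beside 12.5%, at a median log2 ratio of -0.31 beside 0.07 for all listed genes. That gene was flbC, which encodes a zinc finger activator of brlA, with 79 counts in urea, 9 in ammonium and a log2 ratio of 2.36 (1.37 to 3.54). flbA, not listed in that table, had 7 counts in urea and 1 in ammonium, with 2.04 (-0.92 to 7.53). For fructose over glucose with urea, 1 of 12 was higher, beside 17.2% of all genes, and 0 were lower, beside 15.4% (median -0.14). The gene that passed was sfgA, for a repressor upstream of the fluffy genes, with 100 counts in fructose, 43 in glucose and 2.01 (1.48 to 2.56). With ammonium 0 of 12 were higher in fructose, beside 11.9%, and 1 was at least 4-fold lower, beside 6.42%, the regulator of G-protein signalling gene flbA at 1 count against 29, a log2 ratio of -2.65 (-8.00 to -0.06), and the median over the list was 0.47. At 1.83 CPM in fructose with ammonium, flbA was listed there only through glucose. For urea over ammonium in glucose 0 of 12 passed (median 0.39), beside 1.97% higher and 0.884% lower over all genes.

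fluG, which stands at the head of the fluffy pathway, had 60.3, 84.1, 45.9 and 34.5 CPM in fructose with urea, fructose with ammonium, glucose with urea and glucose with ammonium. flbB, for a leucine zipper factor of the hyphal tip, had 93.5, 89.6, 60.0 and 80.6 CPM in the same order. Their highest value was in fructose with ammonium for fluG and in fructose with urea for flbB, with overlapping levels between the fructose libraries for flbB. flbD, a Myb-type regulator gene, had 71.4, 25.6, 29.4 and 9.98 CPM, highest in fructose with urea. nsdD, whose GATA factor represses brlA and promotes sexual development, was lower in fructose than in glucose with urea, at 34 counts against 161 and -1.45 (-2.03 to -0.91).

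Of the 5 developmental modifiers with a count, 4 had their highest CPM in fructose with urea, as did 40.1% of all genes with 4 counts, or 35.2% with TMM scaling. For fructose over glucose with urea, 3 of 5 passed 4-fold towards fructose, beside 17.2% of all listed genes, and 0 towards glucose, beside 15.4%, and the median was 2.32 beside 0.03 for all genes. stuA, for a factor that shapes the conidiophore, had 183 counts in fructose and 22 in glucose, a log2 ratio of 3.85 (3.21 to 4.56). laeA, for a velvet-complex methyltransferase that controls secondary metabolism, had 94 and 14, with 3.54 (2.73 to 4.47). veA, the velvet gene that balances sexual and asexual development, had 23 and 8, with 2.32 (1.11 to 3.69). velB, whose protein pairs with VosA, had 23 counts in fructose and 29 in glucose, with 0.46 (-0.39 to 1.30), and its interval includes 0. medA, for a regulator of conidiophore form, had 22 and 13, with 1.55 (0.50 to 2.67). In glucose with urea, laeA, veA and medA were at 8.24, 4.71 and 7.65 CPM, under the 10.6 CPM of the listed genes. They were listed only through fructose, and the share and the median serve as description only.

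Urea over ammonium in fructose had 0 of 5 modifiers past 4-fold (median 0.95), beside 10.6% higher and 12.5% lower over all listed genes. There stuA stood at 1.89 (1.32 to 2.51). The intervals of medA, at 0.88 (-0.40 to 2.35), and veA, at 0.95 (-0.32 to 2.41), include 0, and velB was at -0.25 (-1.23 to 0.77). In glucose 0 of 3 passed (median -0.60), beside 1.97% higher and 0.884% lower over all genes. For fructose over glucose with ammonium 1 of 5 was higher and 0 lower, beside 11.9% and 6.42% (median 0.77). That gene was laeA at 2.27 (1.36 to 3.18), listed only through fructose, with 8.44 CPM in glucose.

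Catalase genes did not all share the pattern of catA. Of the 4, catA, cpeA and catC, 3 genes, had their highest CPM in fructose with urea. The share over all genes with 4 counts was 40.1%, or 35.2% with TMM scaling. catB, the catalase gene of growing and developing hyphae, was lowest in fructose with urea, at 17.2 CPM, against 104 CPM in fructose with ammonium, 34.7 CPM in glucose with urea and 82.5 CPM in glucose with ammonium. Its log2 ratio of urea over ammonium in fructose was -2.80 (-3.75 to -1.93), the opposite direction from catA. cpeA, a catalase-peroxidase gene known from sexual development, had 1756 counts in fructose with urea, 155 in fructose with ammonium, 0 in glucose with urea and 3 in glucose with ammonium. catC, a further catalase gene, had 21, 7, 3 and 22 counts in the same order. Scaled to depth these were 25.8, 12.8, 1.77 and 8.44 CPM. Over the 4 catalase genes, catA included, 2 passed 4-fold towards urea and 1 towards ammonium in fructose, beside 10.6% and 12.5% of all listed genes. With urea, 3 passed towards fructose and 0 towards glucose, beside 17.2% and 15.4%. With ammonium 2 of 4 passed towards fructose and 0 towards glucose, beside 11.9% and 6.42%. In glucose, catA, catC and cpeA were at 5.30, 1.77 and 0 CPM with urea and at 1.92, 8.44 and 1.15 CPM with ammonium. Under the listing levels of 10.6 and 10.4 CPM, they were listed only through fructose. For nitrogen in glucose catB alone was listed and stayed under 4-fold, at -1.20 (-1.64 to -0.77). From the counts of other tables, catC was lower in urea in glucose, at 3 counts against 22 and -2.20 (-4.59 to -0.47).

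Spore reserve and spore transcript genes gave no common direction. Of 4 measured, 0 passed 4-fold towards urea and 1 towards ammonium in fructose, beside 10.6% and 12.5% of all listed genes. With urea 0 passed towards fructose and 0 towards glucose, beside 17.2% and 15.4%. For urea over ammonium in glucose 1 of 4 was at least 4-fold higher, beside 1.97%, and likewise 1 of 4 for fructose over glucose with ammonium, beside 11.9%. In all 3 of these cases the gene was cetA, a conidia-enriched transcript, which had 5 counts in urea, 14 in ammonium and -2.26 (-4.08 to -0.70) in fructose. Its level was 6.15 CPM in fructose with urea and 1.15 CPM in glucose with ammonium. In each case cetA was listed only through the higher library. orlA, for trehalose phosphatase, had 272 CPM in fructose with urea, against 342 CPM in fructose with ammonium, 479 CPM in glucose with urea and 536 CPM in glucose with ammonium. tpsA, for trehalose phosphate synthase, had 88.6, 60.3, 39.4 and 30.3 CPM in that order. treB, for a trehalase, stood at 519, 399, 546 and 444 CPM.

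Of the 5 genes tied to sexual structures, mutA, rosA and steA stood highest in fructose with urea among the libraries analysed. Of the 4 with a count from every library, 2 stood highest there, beside 40.1% of all such genes, or 35.2% with TMM scaling. mutA, for a glucanase of Hülle cells, the nurse cells around sexual fruiting bodies, had 110 sense counts in fructose with urea, 2 in fructose with ammonium and 0 in glucose with urea. rosA, for a repressor of sexual development, had 306, 30, 0 and 2 counts in fructose with urea, fructose with ammonium, glucose with urea and glucose with ammonium. Of the 5 listed, 2 passed 4-fold towards urea in fructose and 2 towards fructose with urea, beside 10.6% and 17.2% of all listed genes. In the other directions 0 passed, beside 12.5% and 15.4%. The genes were mutA and rosA, of which rosA is a repressor and no structural gene. In glucose with urea both were at 0 CPM, and in fructose with ammonium mutA was at 3.66 CPM. Thus mutA in both comparisons and rosA in the carbon comparison were listed only through fructose with urea. For urea over ammonium in glucose 0 of 3 passed, beside 1.97% higher and 0.884% lower over all genes. For fructose over glucose with ammonium 1 of 4, rosA, was higher and 0 were lower, beside 11.9% and 6.42%. At 0.77 CPM in glucose with ammonium, rosA was listed there only through fructose. Summed over the genes of the list with a count, the level was 692 CPM in fructose with urea over 5 genes, 219 CPM in fructose with ammonium over 5, 152 CPM in glucose with urea over 5 and 106 CPM in glucose with ammonium over 4. In glucose with urea, mutA and rosA were at 0 counts. The part of such cells in the marker values was not tested. nsdC and steA, further regulators, stayed under 4-fold, with steA at 1.45 (0.60 to 2.39) for urea over ammonium in fructose.

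Over the 7 lists together, 7 of 32 listed genes passed 4-fold towards urea and 2 towards ammonium in fructose, beside 10.6% and 12.5% of all listed genes. With urea, 12 of 32 passed towards fructose and 0 towards glucose, beside 17.2% and 15.4%. These counts include the 4 markers. Of those 12, brlA, ivoB, catA, catC, cpeA, laeA, veA, mutA and rosA were under the listing level of 10.6 CPM in glucose with urea. They were listed only through fructose. For nitrogen in fructose, mutA was listed only through urea and cetA only through ammonium. The shares serve as description only. Of 30 list genes with 4 counts, 16 had their highest CPM in fructose with urea, where 40.1% of all such genes did, or 35.2% with TMM scaling.

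**Figure D4:**
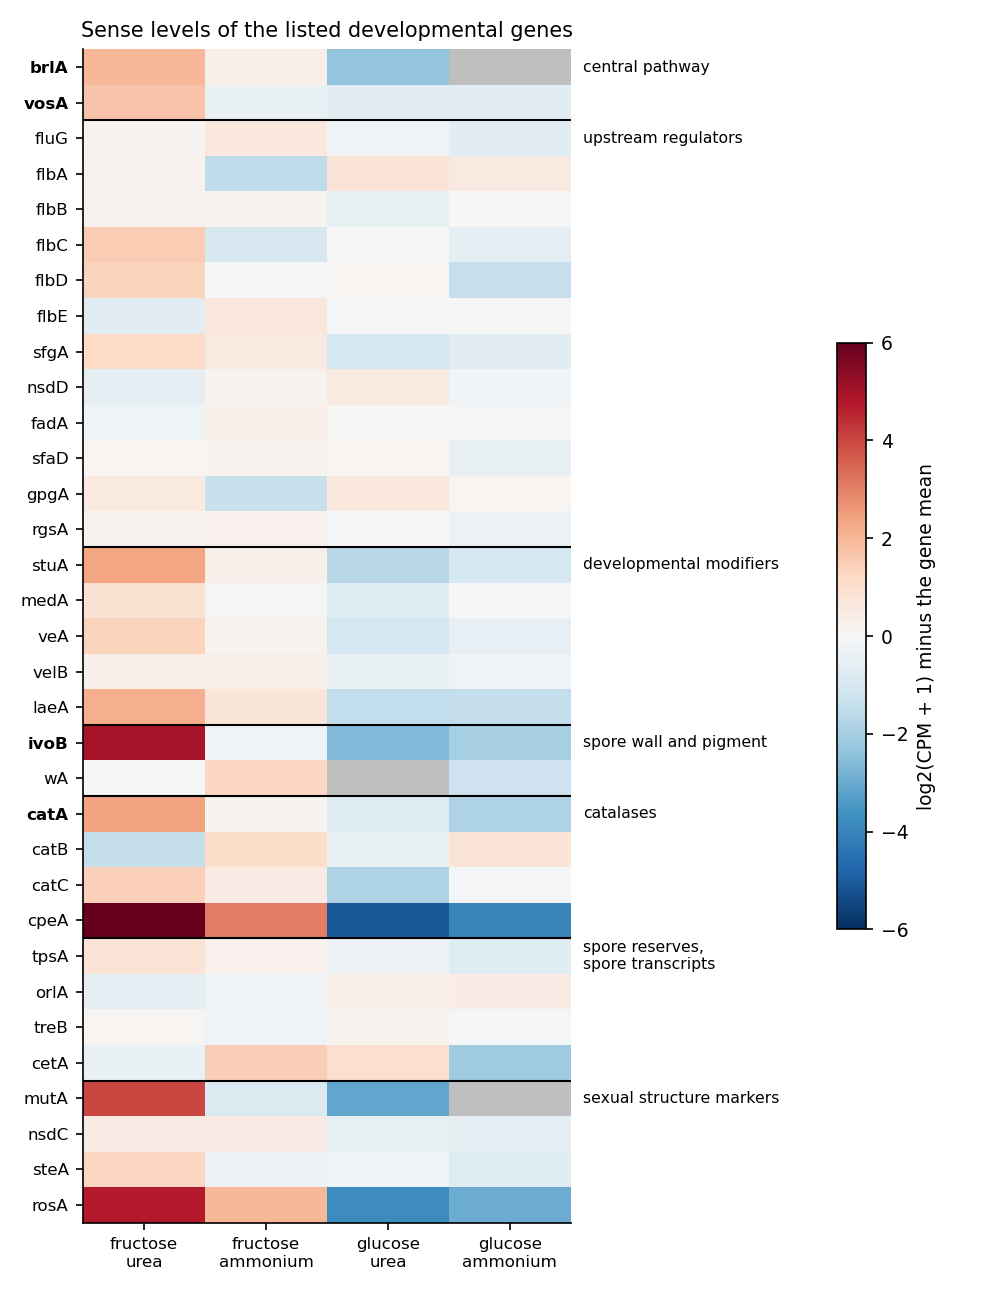
Sense levels of the list genes with a count, as log2(CPM + 1) minus the gene's mean over the libraries analysed, in the 4 libraries, grouped by list, with the 4 markers in bold and grey for a library not analysed. nsdD stands once, among the upstream regulators. The markers, stuA, laeA, cpeA, mutA and rosA are high in the column of fructose with urea, and catB is low there.

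The genes most like each marker were found by Euclidean distance between centred profiles of log2(CPM + 1) over the 4 libraries, among 6783 genes with 4 counts and at least 20 in all. For ivoB they were AN1433 at 0.317, the fumarylacetoacetate hydrolase gene fahA (AN1896) of phenylalanine breakdown at 0.426 and the feruloyl esterase gene AN1772 at 0.537. AN1433 had 1456, 28, 11 and 34 counts in fructose with urea, fructose with ammonium, glucose with urea and glucose with ammonium, and fahA had 402, 6, 4 and 10. For catA they were the penicillin synthesis gene aatA (AN2623) at 0.167, acdA (AN12335), with an acyl-CoA dehydrogenase domain, at 0.269 and AN0137 at 0.306. For vosA they were the predicted sugar transporter gene AN4209 at 0.136, the fatty acid CoA ligase gene faaA (AN6014) at 0.161 and AN11173 at 0.187. These distances describe 4 single libraries. brlA had too few libraries with a count for this measure.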

How the data were processed

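Each medium had 1 library from rRNA-depleted RNA, made with a ScriptSeq kit per the labels' protocols. The deposited files are 8 tables, each with whole-number read counts of 2 libraries for 1 strand. Per the file headers they also hold the authors' p-value and FDR beside a log2 fold change and a mean log2 CPM. HTSeq and edgeR stand in the submitters' processing notes. With the aligner, the build and the gene annotation not given in the sources used here, no coordinates or sequences are printed. The tables list genes of at least 10.4 CPM in the higher library, so a gene low in 1 library is listed only through the other. Their 16 columns of normalised values were not used.

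Counts were scaled with TMM (edgeR 4.0.16, R 4.3.3), and a count of 0 was set to 3 and gives a bound. No test was run, since each comparison sets 1 library against 1 and leaves edgeR's quasi-likelihood test no residual degrees of freedom. The ratios matched the deposited log2 fold changes within 0.0297 for genes with 20 counts in both libraries, after the deposited nitrogen values, ammonium over urea, were turned. DESeq2 1.42.0 gave alternative size factors. The steps were tested on simulated data. The members and lists were chosen with earlier results of these data known. List genes without a name in the tables, 6 of 43, were matched by RefSeq symbol, and 4 had no match. The genes named are the markers, the list genes, the 3 nearest profiles per marker and, in the closing section, genes beside the markers, added after their values were seen.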

Additional observations from a re-analysis of the deposited data

Results flagged for a closer look

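Genes of the lists are given here where both counting intervals exclude 0 and the direction is opposite under the same change of medium. With 1 library per medium, none of these differences was tested. The conidia-enriched cetA had sense log2 ratios of urea over ammonium of -2.26 in fructose and 4.04 in glucose. Those of fructose over glucose were -1.84 with urea and 4.43 with ammonium. They come from 5, 14, 31 and 3 sense counts in fructose with urea, fructose with ammonium, glucose with urea and glucose with ammonium. Its antisense ratios of urea over ammonium were 3.24 (0.50 to 8.65) in fructose and 2.92 (1.03 to 5.38) in glucose. In fructose with urea 13 of its 18 counts were antisense. The G-protein alpha subunit gene fadA had -0.72 in fructose and 0.20 in glucose for nitrogen, and -0.56 with urea and 0.34 with ammonium for carbon. For fluG the nitrogen ratios were -0.68 in fructose and 0.46 in glucose, and for nsdD they were -1.04 in fructose and 0.78 in glucose. flbE, for a partner of FlbB at the hyphal tip, had carbon ratios of -0.86 with urea and 0.65 with ammonium. No marker gene met this condition, since the ivoB ratio of urea over ammonium in glucose, -0.79, has an interval that includes 0.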

How the results depend on the processing

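All 126 recomputed member ratios stayed within their counting intervals or, for bounds against a 0, within that interval or 2-fold of the bound, and none of the called ones changed sign. The interval of a bound is open away from 0, so for bounds a shift that way could not be scored as a move. The narrowest closed interval, that of vosA sense for fructose over glucose with urea, ran from 1.63 to 2.68 around 2.14. The scaling shifts given below were smaller than its reach, so no scaling could fail this check. With a prior count of 1, vosA antisense for fructose over glucose with ammonium went from -0.88 to -4.19. For urea over ammonium in fructose, brlA antisense went from 0.76 to 2.82 and vosA antisense from 1.65 to 3.61. Total-count scaling moved the sense ratios by up to 0.27 on the log2 scale, the largest shift among the scalings for that strand, and the sense table's sizes moved antisense ratios by up to 0.31. Past 4-fold, the number of members changed only with a prior count of 1, to 2 in place of 3 for sense urea over ammonium in fructose, and on the antisense strand to 3 in place of 1 for that comparison, to 2 in place of 3 for fructose over glucose with urea and, towards glucose with ammonium, to 1 in place of 0.

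Of 64 recomputed counts of genes past 4-fold, 4 moved by more than 1.5 times. Over genes with a count from all 4 libraries, 522 in place of 792 sense genes were higher in urea in fructose, and 840 in place of 1272 in fructose than glucose with urea, as fewer genes enter. Over genes whose deposited mean log2 CPM is at least 3, 174 in place of 277 antisense genes were higher in urea in glucose. With a prior count of 1, 905 in place of 541 antisense genes were lower in fructose than glucose with ammonium, a setting that replaces the 3 counts put in for a 0. The 12 recomputed list values stayed within 1.5 times, or 0.5 on the log2 scale for medians. No paired analysis was possible because each medium has 1 library, and for the same reason no library could be left out. Depth limits brlA, catA and the antisense values most, since most of these rest on fewer than 20 counts.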

Other observations

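Genes beside the markers in the RefSeq gene order of ASM1142v1 were read as values, chosen after they were seen. cetJ (AN8638), next to catA and described as enriched in dormant conidia, had 44, 11, 19 and 4 sense counts in fructose with urea, fructose with ammonium, glucose with urea and glucose with ammonium. It was 4.02-fold higher in fructose than glucose with urea, a log2 ratio of 2.01 (1.20 to 2.87), and 7.56-fold higher in urea than ammonium in glucose, 2.92 (1.33 to 4.93). Both genes flanking vosA were also higher in fructose with urea. AN1958 had 22 counts there, 0 in fructose with ammonium and 6 in glucose with urea, and AN1960 had 43, 5 and 11.

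The gene next to ivoB went the other way. ureD (AN0232), for a nickel-binding protein of urea use, had 102 counts in fructose with urea, 106 in fructose with ammonium, 820 in glucose with urea and 1451 in glucose with ammonium. Its log2 ratio of fructose over glucose with urea was -2.21 (-2.52 to -1.91), beside 7.81 for ivoB.

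dewA, for a hydrophobin of the spore wall, had 17 antisense counts in fructose with urea, 0 in fructose with ammonium and 0 in glucose with urea, with no sense counts analysed here.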
